A study of Homo sapiens with 8 samples.

Results

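The collagen chain genes are the genes whose symbol is COL, a number, A and a number, each coding for 1 alpha chain of a collagen. They were taken from the probe sets that the array's annotation gives exactly 1 gene symbol, with the probe set of the highest mean kept for each gene, which gave 42 collagen genes among 22395 genes. The probe set for COL3A1 carries several symbols, and COL17A1 is not named in the annotation used here, so these 2 chains were not analysed. The 42 genes were described as 6 fibrillar, 8 cartilage, 8 basement membrane and 7 FACIT collagens and 13 other collagens. Each gene was placed in 1 class only. COL2A1, COL9A1, COL9A2, COL9A3, COL10A1, COL11A1, COL11A2 and COL27A1 are counted under cartilage, whether they form fibrils or lie on them.

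Collagens are extracellular proteins in which 3 alpha chains wind into a triple helix. Fibrillar collagens assemble into the tension-bearing fibrils of connective tissue, cartilage adds its own fibril (types II, IX and XI), basement membranes are built on a type IV network, and FACIT collagens sit on the surface of fibrils. Chains are hydroxylated and folded in the endoplasmic reticulum, trimmed after secretion and cross-linked outside the cell. Chordoma is a bone tumour held to originate in leftover notochord, a rod of the embryo that makes a sheath rich in collagen II.

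The data are 8 whole-transcript microarrays of U-CH1 and MUG-Chor1, established human chordoma cell lines, each derived from a single tumour. Both lines were grown as monolayers on gelatin-coated plastic in an IMDM and RPMI mixture with fetal bovine serum, so every group, controls included, met a coat of denatured collagen. The 4 groups were U-CH1 control (3 arrays), MUG-Chor1 control (3 arrays), U-CH1 given TNF-α (1 array) and MUG-Chor1 given TNF-α (1 array). TNF-α, an inflammatory cytokine, was the human recombinant protein at 10 ng/mL, added 3 times a week for 1 week. The control titles give no time in culture, so an equal time for controls and TNF-α arrays was not established. The comparisons address how the collagen repertoires of the untreated lines differ and how each line's collagen genes stood after TNF-α.

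Values are the deposited log2 signals. Since probes differ in brightness, a level is compared only with the same gene's level on other arrays. The median of the whole table was 2.57, and the 16986 genes with a signal over it on 1 array or more were tested. Differences were tested with limma over all of these genes with Benjamini-Hochberg adjustment, and a gene is called where the adjusted p is under 0.05 (two-sided). A TNF-α group has only 1 array, so its spread was assumed to equal that of the controls. No label says whether the 3 controls of a line were separate cultures. The p-values therefore rest on the spread between arrays alone, which may be technical. In bulk RNA, fewer cells of a type and less RNA per cell cannot be told apart.

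Array medians lay between 2.52 and 2.63. The mean correlation with the same line's controls was 0.960 to 0.970 for the control arrays, 0.943 for the U-CH1 TNF-α array and 0.932 for the MUG-Chor1 TNF-α array. The 7 chordoma markers were above the median on every array, with a mean of 7.94 to 8.39 in U-CH1 controls and 7.90 to 8.17 in MUG-Chor1 controls. That mean was 7.61 on the U-CH1 TNF-α array and 5.71 on the MUG-Chor1 TNF-α array. The third MUG-Chor1 control had the lowest signal of its group for 22 of the 32 tested collagens (68.8%), against 36.9% of all genes, and its median collagen difference to its 2 partners was -0.24, against 0.00 over all genes. The third U-CH1 control was the lowest of its group for 16 of 32 collagens (50%, against 28.3% of all genes), with a median collagen difference to its partners of -0.20, against 0.05 over all genes. Collagen results that turn on either array are given with and without it.

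Of the 42 collagen genes, 32 exceeded the median somewhere and were tested, and 25 of those exceeded it on all 8 arrays. The 7 that did so on some arrays only were COL1A2, COL4A4, COL7A1, COL8A2, COL12A1, COL20A1 and COL25A1. The 10 untested genes were COL4A3, COL4A6, COL6A5, COL10A1, COL14A1, COL19A1, COL21A1, COL22A1, COL24A1 and COL28A1, with values from 1.26 to 2.51. COL28A1, whose highest value was 2.51, lay just outside the threshold, and COL4A4, whose highest value was 2.84, lay just inside. In all, 10 collagen genes were called in at least 1 comparison, and all 10 were above the median on every array. The matching share over all genes was not counted. Between the untreated lines alone, 18.9% of all tested genes were called, so the pooled count does not set the collagens apart.

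**Figure D1:**
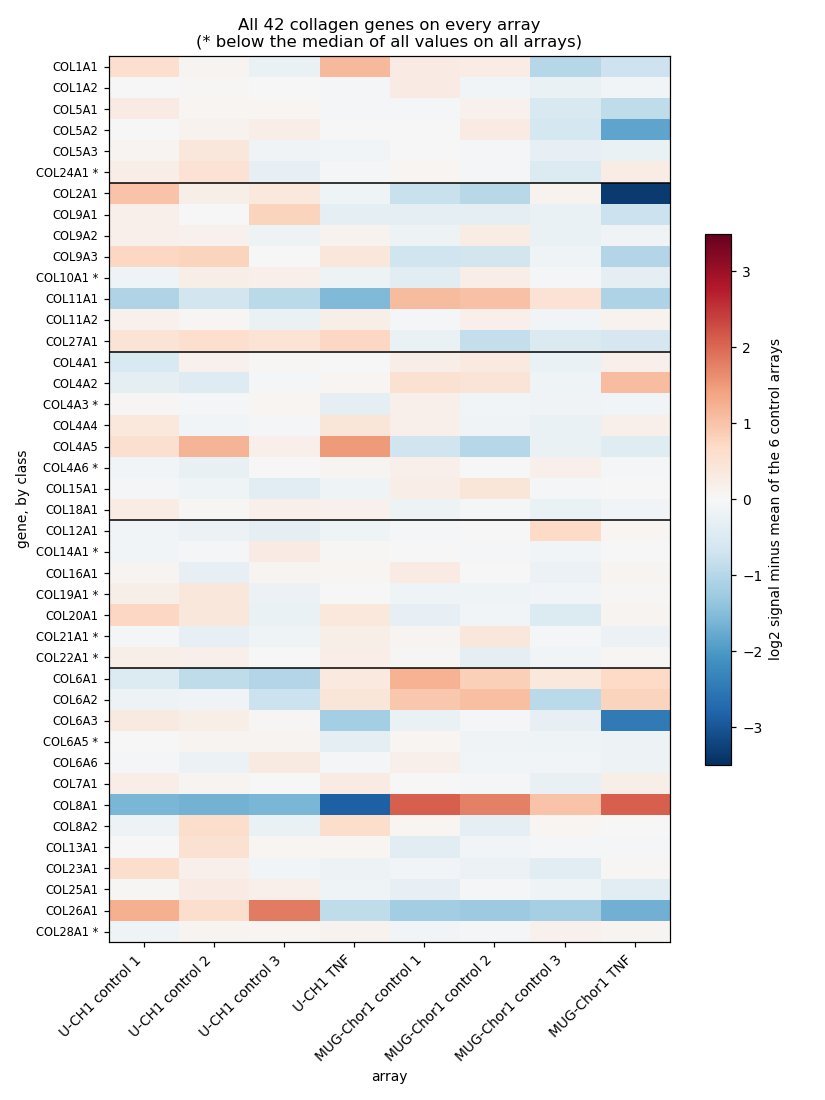
Log2 signal of the 42 collagen genes (rows, by class) on the 8 arrays (columns), each gene shown as its difference from its mean over the 6 control arrays, on a colour scale from -3.5 to 3.5. An asterisk marks the 10 genes below the median of all values on every array. Most rows are pale, and the strong colours belong to few genes, among them COL8A1 and COL26A1 between the lines and COL2A1, COL6A3, COL11A1 and COL5A2 on the MUG-Chor1 TNF-α array.

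Between the untreated lines, the collagen repertoires differed in 8 of the 32 tested genes (25%), beside 18.9% of all tested genes. COL8A1, COL11A1 and COL6A1 were higher in MUG-Chor1 (3 genes, 9.38%, beside 10.3% of all genes). COL26A1, COL4A5, COL2A1, COL27A1 and COL9A3 were lower in MUG-Chor1 (5 genes, 15.6%, beside 8.57% of all genes). The median difference, MUG-Chor1 minus U-CH1, was -0.23 over the 32 collagens and -0.04 over all genes, and without MUG-Chor1 control 3 the collagen median was -0.06. The 3 control arrays of one line lay wholly above those of the other for 11 collagens in favour of U-CH1 and 5 in favour of MUG-Chor1, beside 18.2% and 18.1% of all genes.

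The cartilage collagens held 4 of the 8 calls, among 7 tested members, and they did not all point one way. COL2A1 codes for the chain that forms the collagen II homotrimer, the main fibril of cartilage and of the notochord sheath. Its log2 signal was 7.43, 6.64 and 6.80 in the U-CH1 controls and 5.64, 5.46 and 6.56 in the MUG-Chor1 controls. The groups did not overlap, but the third MUG-Chor1 control came within 0.0836 of the lowest U-CH1 control. The difference was -1.07 ± 0.31 (SE, n = 3 and 3), a 2.10-fold lower signal in MUG-Chor1 (limma, adjusted p = 0.0356). This call ended without U-CH1 control 1 (adjusted p = 0.136), U-CH1 control 3 (0.0661), MUG-Chor1 control 1 (0.124) or MUG-Chor1 control 2 (0.124).

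COL11A1 codes for the alpha 1 chain of collagen XI, the collagen at the core of the cartilage fibril that limits its width. It measured 5.24, 5.64 and 5.35 in U-CH1 and 7.40, 7.33 and 6.81 in MUG-Chor1. Every MUG-Chor1 control was above every U-CH1 control by at least 1.18, and the difference was 1.77 ± 0.22 (3.41-fold, adjusted p = 0.000372 in limma). Its partner chain gene COL11A2, for which 7 probe sets agreed within 0.0868 on any array, measured 3.95, 3.85 and 3.58 in U-CH1 and 3.73, 3.99 and 3.71 in MUG-Chor1, and those groups overlapped.

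Collagen IX lies on the surface of the collagen II fibril and is built from the products of COL9A1, COL9A2 and COL9A3. COL9A3 measured 5.56, 5.61 and 4.83 in U-CH1 and 4.14, 4.19 and 4.68 in MUG-Chor1, a difference of -0.998 ± 0.26 (2.00-fold, limma adjusted p = 0.0209). All U-CH1 controls were above all MUG-Chor1 controls, by the narrow margin between the third array of each line. The COL9A3 call ended without U-CH1 control 1 (adjusted p = 0.0831), U-CH1 control 2 (0.0748), MUG-Chor1 control 1 (0.0835) or MUG-Chor1 control 2 (0.0715). COL9A1 measured 3.73, 3.53 and 4.32 in U-CH1 and 3.20, 3.21 and 3.31 in MUG-Chor1, again without overlap, and its difference of -0.62 did not pass (adjusted p = 0.089). COL9A2 measured 3.31, 3.29 and 2.97 in U-CH1 and 2.97, 3.39 and 2.90 in MUG-Chor1, with overlap. COL10A1, the collagen of hypertrophic cartilage, was below the median on every array (1.26 to 1.86). COL27A1, a fibrillar-type collagen of developing cartilage, measured 4.35, 4.47 and 4.36 in U-CH1 and 3.65, 3.05 and 3.37 in MUG-Chor1. Its difference of -1.04 ± 0.21 was 2.05-fold (limma, adjusted p = 0.00593), with tight U-CH1 arrays and no overlap. Because of COL2A1 and COL9A3, the count of lower cartilage collagens fell from 3 to 1 without U-CH1 control 1, MUG-Chor1 control 1 or MUG-Chor1 control 2, and to 2 without U-CH1 control 2 or 3.

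**Figure D2:**
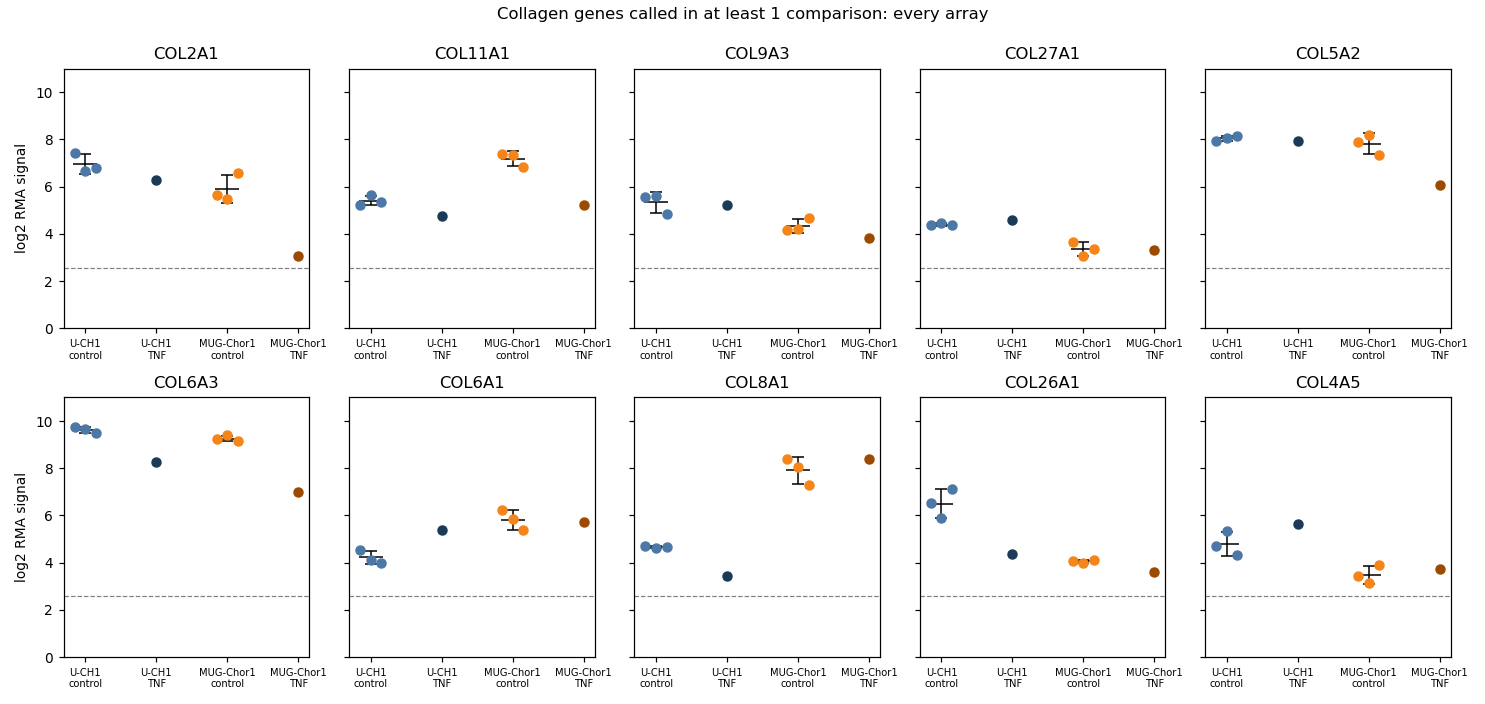
Log2 signal of the 10 collagen genes called in at least 1 comparison, 1 panel a gene, with a point for each of the 3 control arrays and the 1 TNF-α array of each line. The dashed line is the median of all deposited values, 2.57. The COL8A1, COL11A1 and COL6A1 controls are higher in MUG-Chor1, the COL26A1 controls are higher in U-CH1, and the COL6A3 points after TNF-α lie below the controls in both lines.

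The other collagens held the pair of widest differences between the lines. COL8A1 codes for a chain of collagen VIII, a short-chain collagen that forms a hexagonal network beneath endothelia. Its signal was 4.70, 4.64 and 4.68 in U-CH1 and 8.38, 8.06 and 7.29 in MUG-Chor1. The U-CH1 arrays agreed closely and every MUG-Chor1 array was at least 2.59 above them. The difference was 3.24 ± 0.26, a 9.43-fold higher signal in MUG-Chor1 (limma, adjusted p = 2.4e-05). The other collagen VIII gene, COL8A2, measured 2.57, 3.35 and 2.51 in U-CH1 and 2.80, 2.39 and 2.80 in MUG-Chor1, with overlap.

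COL26A1 codes for collagen XXVI, a little-studied secreted collagen first described in testis and ovary. It measured 6.51, 5.88 and 7.11 in U-CH1 and 4.07, 4.00 and 4.11 in MUG-Chor1. The U-CH1 arrays spread over more than 1 log2 unit and still lay clear of the MUG-Chor1 arrays. The difference was -2.44 ± 0.28 (5.43-fold lower in MUG-Chor1, limma adjusted p = 0.000217).

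COL6A1, COL6A2 and COL6A3 code for the 3 chains that combine in equal numbers in the classic collagen VI microfibril, which surrounds chondrocytes. COL6A1 measured 4.54, 4.13 and 4.00 in U-CH1 and 6.24, 5.86 and 5.39 in MUG-Chor1, with no overlap and a difference of 1.61 ± 0.25 (3.04-fold, limma adjusted p = 0.00151). COL6A2 measured 5.20, 5.25 and 4.62 in U-CH1 and 6.30, 6.41 and 4.42 in MUG-Chor1. Its first 2 MUG-Chor1 controls were above all U-CH1 controls and the third was below them, and COL6A2 was not called. COL6A3 measured 9.76, 9.64 and 9.49 in U-CH1 and 9.22, 9.39 and 9.17 in MUG-Chor1, and its difference of -0.37 did not pass (adjusted p = 0.206). Without the third MUG-Chor1 control, COL6A2 was called at 1.33 (adjusted p = 0.00382) and COL4A2 at 0.75 (adjusted p = 0.0357), which made 10 collagen calls in place of 8.

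Of the basement membrane collagens, 1 of 6 tested was called. COL4A5, which codes for a chain of the collagen IV of kidney and other specialised basement membranes, measured 4.71, 5.34 and 4.31 in U-CH1 and 3.44, 3.14 and 3.90 in MUG-Chor1. The lines did not overlap, and the difference was -1.29 ± 0.29 (2.45-fold lower in MUG-Chor1, limma adjusted p = 0.0105). COL4A1 and COL4A2, the chains of the common collagen IV network, are transcribed away from each other from start sites 127 bases apart. COL4A2 measured 3.59, 3.45 and 3.84 in U-CH1 and 4.42, 4.34 and 3.75 in MUG-Chor1, a difference of 0.54 (adjusted p = 0.13). COL4A1 measured 2.64, 3.33 and 3.23 in U-CH1 and 3.42, 3.53 and 2.94 in MUG-Chor1. For both of these chains the first 2 MUG-Chor1 controls were above all U-CH1 controls and the third was not.

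The 5 tested fibrillar and 3 tested FACIT collagens, classes that leave out the cartilage chains, gave no call in limma. The fibrillar COL1A1, a chain of the collagen I of bone and tendon, measured 5.21, 4.74 and 4.39 in U-CH1 and 4.92, 4.89 and 3.65 in MUG-Chor1. COL5A2, a chain of the collagen V that nucleates collagen I fibrils, measured 7.92, 8.05 and 8.16 in U-CH1 and 7.90, 8.20 and 7.32 in MUG-Chor1. COL1A2, the other collagen I chain, measured 2.66, 2.70 and 2.66 in U-CH1 and 2.94, 2.56 and 2.42 in MUG-Chor1. The lines overlapped for all 3 genes, and all 5 fibrillar differences were negative. Without MUG-Chor1 control 3 this no longer held: COL1A1 (0.12), COL1A2 (0.07) and COL5A2 (0.01) were then positive, and the fibrillar median was 0.01. Beside 2821 higher and 2568 lower of all 16986 genes, 0 of the fibrillar and 1 of the FACIT genes passed an unadjusted p under 0.05. That gene, COL20A1, measured 3.68, 3.33 and 2.71 in U-CH1 and 2.66, 2.84 and 2.46 in MUG-Chor1 (difference -0.59, adjusted p = 0.145), and it was called without U-CH1 control 3. Whichever control array was left out, COL8A1, COL26A1, COL11A1, COL6A1, COL27A1 and COL4A5 kept their calls.

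The other 22 tested collagens were called in no comparison. Among them are COL5A3, COL12A1, COL13A1, COL15A1, COL16A1, COL18A1, COL23A1, COL25A1, COL4A4, COL6A6 and COL7A1, whose products range from fibril-bound FACIT chains (COL12A1, COL16A1) and basement membrane collagens (COL15A1, COL18A1, the source of endostatin) to membrane-spanning ones (COL13A1, COL23A1, COL25A1) and the anchoring fibril of skin (COL7A1). Over the 22, the differences ran from -0.62 to 0.69 between the control lines, from -0.62 to 0.99 after TNF-α in U-CH1 and from -0.76 to 0.80 after TNF-α in MUG-Chor1.

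**Figure D3:**
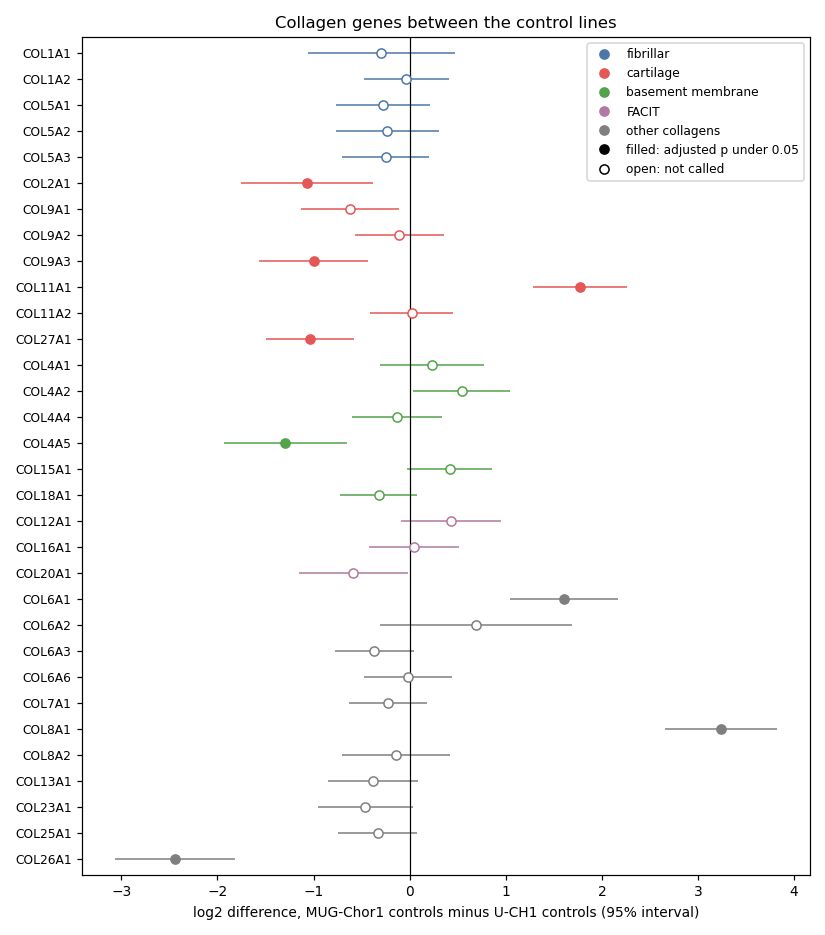
Difference in log2 signal of the 32 tested collagen genes between MUG-Chor1 and U-CH1 controls (3 arrays each), with 95% intervals from limma, coloured by class. Filled points are the 8 called genes, 3 to the right of 0 (COL8A1, COL11A1, COL6A1) and 5 to the left.

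After TNF-α in U-CH1, 2 of the 32 tested collagens fell (6.25%) and none rose, beside 1.27% of all genes called in either direction, 0.913% called higher and 0.359% called lower. At an unadjusted p under 0.05, 3 collagens were lower and 1 was higher, beside 645 lower and 1187 higher of all 16986 genes. The median difference from the controls was 0.02 over the collagens (-0.03 without U-CH1 control 3) and 0.04 over all genes. The TNF-α array was below all 3 controls for 10 collagens and above them for 10, beside 23.4% and 30.8% of all genes.

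COL26A1 measured 4.38 on the U-CH1 TNF-α array, against controls of 6.51, 5.88 and 7.11. That array lay below every U-CH1 control and above every untreated MUG-Chor1 array. The fall was 4.34-fold (log2 difference -2.12 ± 0.40, 1 array against 3, limma adjusted p = 0.0317). COL6A3 measured 8.25, against controls of 9.76, 9.64 and 9.49, a 2.60-fold fall (-1.38 ± 0.26, limma adjusted p = 0.035). Its controls agreed closely and the TNF-α array was more than 1 log2 unit below them. The COL26A1 call ended without U-CH1 control 1 (adjusted p = 0.0925) or MUG-Chor1 control 1 (0.0662), which counts here through the shared estimate of spread. The COL6A3 call ended without U-CH1 control 1 (0.0854), 2 (0.0792) or 3 (0.0517), without MUG-Chor1 control 1 (0.0754) or 2 (0.0581), and with the 4 U-CH1 arrays alone (0.0668). The count of collagens called was thus 0 without the first control of either line, 1 without U-CH1 control 2 or 3 or MUG-Chor1 control 2, and 3 where MUG-Chor1 control 3 was dropped.

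Other collagens had wide but uncalled differences in U-CH1. COL8A1 measured 3.43 after TNF-α against 4.70, 4.64 and 4.68 (difference -1.24, adjusted p = 0.189), and this was the third call (adjusted p = 0.0452) when MUG-Chor1 control 3 was left out. COL6A1 measured 5.38 against 4.54, 4.13 and 4.00 (1.16, adjusted p = 0.203). COL6A2 measured 5.78 against 5.20, 5.25 and 4.62 (0.76, adjusted p = 0.783), so the TNF-α array was above all controls for these 2 collagen VI chains and below all controls for the COL6A3 chain. COL1A1 measured 5.77 against 5.21, 4.74 and 4.39 (0.99, adjusted p = 0.511). COL4A5 measured 5.63 against 4.71, 5.34 and 4.31 (0.84, adjusted p = 0.501). The cartilage genes COL2A1 (6.28 against 7.43, 6.64 and 6.80, adjusted p = 0.678) and COL11A1 (4.75 against 5.24, 5.64 and 5.35, adjusted p = 0.491) were below all 3 controls by differences of -0.67 and -0.66 that did not pass. COL9A1 was below them as well (3.24 against 3.73, 3.53 and 4.32, difference -0.62) and was not called. Of the 7 tested cartilage collagens, 2 were above all 3 controls.

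After TNF-α in MUG-Chor1, 4 of the 32 tested collagens fell (12.5%) and none rose, beside 2.88% of all genes called in either direction, 1.47% called higher and 1.41% called lower. At an unadjusted p under 0.05, 5 were lower and 1 was higher, beside 879 lower and 1265 higher of all 16986 genes. The 4 called were 2 cartilage collagens, COL2A1 and COL11A1, the fibrillar COL5A2 and the collagen VI chain COL6A3. The median difference was -0.07 over the collagens and 0.06 over all genes, and without single MUG-Chor1 controls the collagen median ran from -0.17 (without control 3) to 0.04 (without control 1). The TNF-α array was below all 3 controls for 10 collagens and above them for 7, beside 23.9% and 35.3% of all genes.

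COL2A1 measured 3.06 on the MUG-Chor1 TNF-α array, against controls of 5.64, 5.46 and 6.56. It was more than 2 log2 units below the lowest control, a 7.07-fold fall (-2.82 ± 0.44, limma adjusted p = 0.0061). COL11A1 measured 5.22 against 7.40, 7.33 and 6.81, a 3.90-fold fall (-1.96 ± 0.31, limma adjusted p = 0.00691). That array lay just below the lowest untreated U-CH1 array, although the untreated lines did not overlap for this gene. The remaining cartilage collagens were not called. COL9A3 measured 3.82 against 4.14, 4.19 and 4.68 (-0.51), COL9A1 measured 2.81 against 3.20, 3.21 and 3.31, and COL27A1 measured 3.30 against 3.65, 3.05 and 3.37. COL9A2 (-0.07) and COL11A2 (0.10) stood near their controls, as they did in U-CH1 (0.08 and 0.22).

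COL6A3 measured 6.98, against controls of 9.22, 9.39 and 9.17. The controls lay within 0.3 of each other, and the fall was 4.87-fold (-2.28 ± 0.26, limma adjusted p = 0.00112). The partner chains were not called. COL6A1 measured 5.72 against 6.24, 5.86 and 5.39, and COL6A2 measured 6.14 against 6.30, 6.41 and 4.42. Both were within their controls through the third control alone. Without that control, the TNF-α array was below the remaining controls for both chains. COL5A2 measured 6.07 against 7.90, 8.20 and 7.32, a 3.34-fold fall (-1.74 ± 0.34, limma adjusted p = 0.0207). The COL5A2 call ended without MUG-Chor1 control 1 (adjusted p = 0.0701) and with the 4 MUG-Chor1 arrays alone (0.0819). COL5A1, the partner of COL5A2 in collagen V, measured 4.00 against 4.86, 5.07 and 4.38, below all controls by a difference of -0.76 that did not pass (adjusted p = 0.322).

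COL8A1, COL26A1 and COL4A2 were not called in MUG-Chor1. COL8A1 measured 8.38 against 8.38, 8.06 and 7.29 (0.47, adjusted p = 0.719). COL26A1 measured 3.59 against 4.07, 4.00 and 4.11 (-0.47, adjusted p = 0.75), below all controls, from a control level already low beside U-CH1. COL4A2 measured 4.97 against 4.42, 4.34 and 3.75, above all controls by a difference of 0.80 that did not pass (adjusted p = 0.318).

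Cell type markers moved on the MUG-Chor1 TNF-α array beside these falls. Of 7 chordoma markers, 5 fell there: ACAN by 4.09, KRT19 by 3.08, CD24 by 2.99, SOX9 by 2.28 and TBXT by 1.92 on the log2 scale. In U-CH1 all 7 differences were negative (median -0.61) and 0 were called in limma. Lower at an unadjusted p under 0.05 were 3 of them, beside 645 of all 16986 genes. The mean of the 8 measured fibroblast markers was 3.34 to 3.92 in MUG-Chor1 controls and 4.90 on the TNF-α array, and in U-CH1 it was 3.49 to 3.70 in controls and 3.62 after TNF-α. In MUG-Chor1, 4 of 7 tested fibroblast markers rose (FAP by 3.74, LUM by 3.65, DPP4 by 1.89 and DCN by 1.60), while TCF21 stayed below the median on all arrays. THY1 (3.80 against 4.91, 4.93 and 3.99) and PDGFRB (3.43 against 4.33, 3.83 and 3.81) were below all controls by differences of -0.81 and -0.56 that did not pass. The count of fibroblast markers was 2 without U-CH1 control 1 or MUG-Chor1 control 1, where both DCN and DPP4 lost their calls, and 3 without U-CH1 control 2 or 3 or MUG-Chor1 control 2. COL1A1 and COL1A2, which fibroblasts make in quantity, measured 3.91 against 4.92, 4.89 and 3.65 and 2.57 against 2.94, 2.56 and 2.42 in the same comparison. Endothelial markers averaged 3.43 to 3.66 in MUG-Chor1 controls and 2.94 after TNF-α, and 3.13 to 3.30 and 3.20 in U-CH1. Of 6 endothelial genes, KDR alone was called in MUG-Chor1, where it fell by 2.37 (4.71 against 7.52, 7.19 and 6.51). Leukocyte markers averaged 2.72 to 2.96 and 2.88 in MUG-Chor1, 2.74 to 2.85 and 3.10 in U-CH1, with the leukocyte antigen gene PTPRC at 0.93 to 1.23 on all arrays. All 6 tested leukocyte markers had positive differences in U-CH1 (median 0.50, 0 called). Higher at an unadjusted p under 0.05 were 3 of them, beside 1187 of all 16986 genes. CD68 (0.84) and ITGAM (0.83) rose across both lines, calls that ended without at least 1 control (adjusted p of up to 0.0961 and 0.0919). Neither gene was called in a single line. The part of these marker shifts in the collagen results was not tested.

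**Figure D4:**
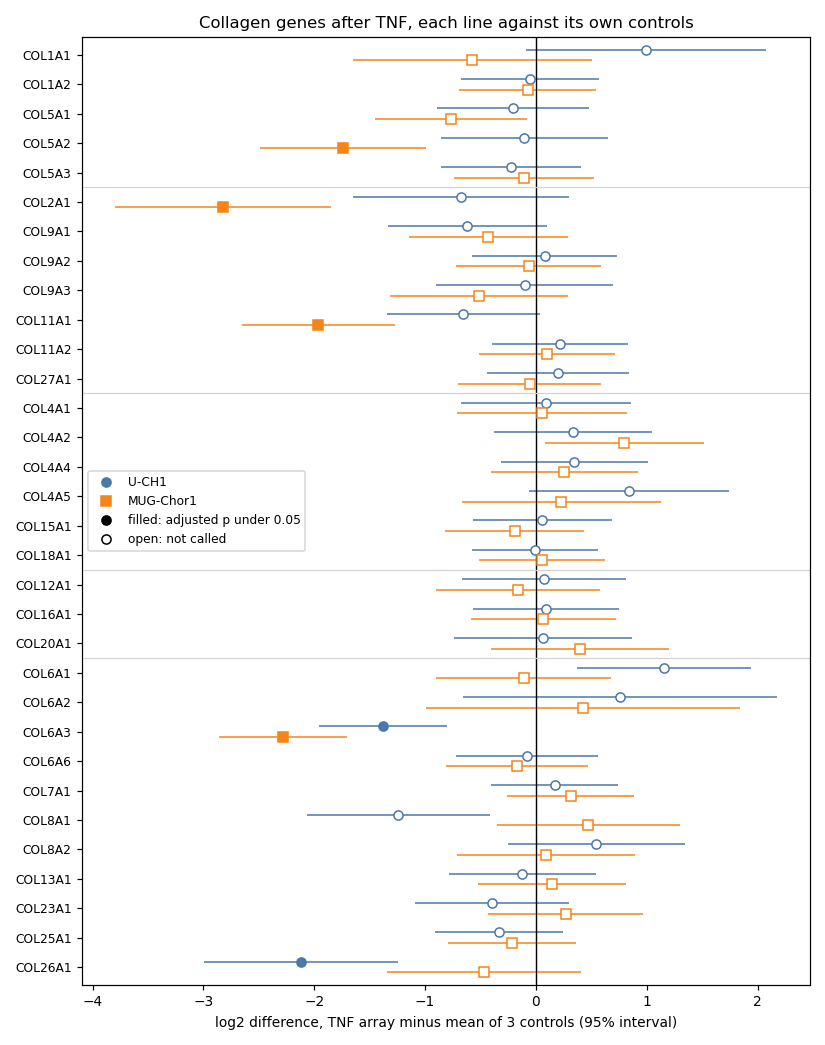
Difference in log2 signal of the 32 tested collagen genes between the TNF-α array and the mean of the 3 controls of the same line, with 95% intervals from limma. Circles are U-CH1 and squares MUG-Chor1, and filled points are called genes. COL6A3 is filled in both lines, COL26A1 in U-CH1 alone, and COL2A1, COL11A1 and COL5A2 in MUG-Chor1 alone.

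The direct test of whether a gene's TNF-α difference was unlike in the 2 lines called none of the 32 collagens in limma. Over all genes, 0.53% were called, 0.2% higher and 0.33% lower. At an unadjusted p under 0.05, 2 collagens were higher and 6 lower, beside 580 higher and 671 lower of all 16986 genes. For COL2A1, MUG-Chor1 minus U-CH1 was -2.15, with a 95% interval from -3.52 to -0.77 (adjusted p = 0.26). The same quantity was -1.64 for COL5A2 (adjusted p = 0.273), -1.31 for COL11A1 (0.393), 1.65 for COL26A1 (0.395), 1.71 for COL8A1 (0.316), -1.26 for COL6A1 (0.548), -0.90 for COL6A3 (0.582) and -1.57 for COL1A1 (0.658). A fall called in 1 line only is therefore not shown to be particular to that line.

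Across both lines in an additive model, 2 of 32 collagens fell (6.25%) and none rose, beside 2.48% of all genes called in either direction, 1.55% called higher and 0.93% called lower. At an unadjusted p under 0.05, 6 were lower and 1 was higher, beside 925 lower and 1677 higher of all 16986 genes. COL6A3 fell 3.56-fold (-1.83 ± 0.22, limma adjusted p = 0.00245), and its call held under all 14 alternatives. Among these are the fits without either TNF-α array, which only repeat the single-line comparisons. COL11A1 fell 2.48-fold (-1.31 ± 0.29, adjusted p = 0.0438). The COL11A1 call ended on leaving out U-CH1 control 1 (0.0596), 2 (0.0801) or 3 (0.0605) or MUG-Chor1 control 1 (0.0868) or 2 (0.0827). It also ended without the filter on low values (0.0561). Without the MUG-Chor1 TNF-α array the model repeats the U-CH1 comparison, where the COL11A1 difference was -0.66. COL2A1 (-1.75, adjusted p = 0.066) and COL26A1 (-1.29, adjusted p = 0.101) did not pass in the additive model of both lines. With the U-CH1 TNF-α array left out, the model repeats the MUG-Chor1 comparison, so its calls are the same by construction.

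Promoter sequence was looked up for the genes that fell after TNF-α. RefSeq windows from 250 bases before to 50 bases after a start site (GRCh38.p14) covered 31 of the 42 collagen genes, and of the 5 genes that fell they covered COL11A1, COL26A1 and COL6A3. COL2A1 and COL5A2 have no entry. The 3 windows follow, 5′ to 3′ on the gene's strand, in the order COL11A1 (chr1:103108473-103108772, minus strand), COL26A1 (chr7:101362625-101362924, plus strand) and COL6A3 (chr2:237414115-237414414, minus strand), with any match to a searched motif in capitals.
COL11A1: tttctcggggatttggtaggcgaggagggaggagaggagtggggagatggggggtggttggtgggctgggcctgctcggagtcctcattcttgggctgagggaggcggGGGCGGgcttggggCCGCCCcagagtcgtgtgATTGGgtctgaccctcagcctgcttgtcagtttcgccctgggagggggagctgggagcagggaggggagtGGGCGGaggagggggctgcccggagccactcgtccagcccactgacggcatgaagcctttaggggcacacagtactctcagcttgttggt
COL26A1: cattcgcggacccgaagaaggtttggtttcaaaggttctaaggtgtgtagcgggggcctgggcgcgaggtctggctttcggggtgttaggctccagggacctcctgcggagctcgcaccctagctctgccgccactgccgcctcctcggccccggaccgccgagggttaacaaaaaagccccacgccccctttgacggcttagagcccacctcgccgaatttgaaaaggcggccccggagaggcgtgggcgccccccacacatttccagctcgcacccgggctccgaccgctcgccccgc
COL6A3: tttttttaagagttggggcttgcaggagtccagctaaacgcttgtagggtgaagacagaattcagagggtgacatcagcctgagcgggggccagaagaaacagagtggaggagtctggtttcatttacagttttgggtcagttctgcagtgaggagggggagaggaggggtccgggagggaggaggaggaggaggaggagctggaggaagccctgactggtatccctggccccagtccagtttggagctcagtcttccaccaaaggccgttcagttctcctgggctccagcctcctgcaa

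These windows were searched on both strands for 7 motifs. COL11A1 held 3 GC boxes, whose first bases lie at -142, -128 and -40 from the start, and 1 CCAAT box at -110. COL26A1 and COL6A3 held no match. The GC content was 66% in COL11A1, 66.7% in COL26A1 and 56.3% in COL6A3. The GC box (GGGCGG) occurs in 45% of all 35116 RefSeq windows and in 24 of the 43 collagen windows, and CCAAT occurs in 34.6% and in 13. The NF-kB motif (GGG, any 2 bases, TTTCC), bound by the factor that TNF-α activates, occurs in 1.91% of all windows and in 2 of the collagen windows. The shares for the others were 7.71% and 1 window for AP-1 (TGANTCA), 0.98% and 0 for the T-box motif (AGGTGTGA), 3.16% and 2 for SOX (ACAATGG), and 11.5% and 7 for the TATA box (TATAAA). In the 3 printed windows no matches overlapped one another, and a missing match says only that these letters are not in the window.

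The machinery around collagen also differed between the untreated lines, beside 18.9% of all genes. Of 18 tested modification and folding genes, 9 were lower in MUG-Chor1 and 1 higher, with a median difference of -0.55. P4HA1, a prolyl 4-hydroxylase subunit, differed by -2.32, FKBP14, a prolyl isomerase that acts on collagen, by -1.31, and P3H2, a prolyl 3-hydroxylase, by -1.28. TMEM38B, an ion channel of the endoplasmic reticulum, was higher by 1.63. The count of lower genes was 5 without U-CH1 control 1 or 3, and 6 without MUG-Chor1 control 1 or 2. SERPINH1, the collagen chaperone, was not called in the control lines (-0.43, adjusted p = 0.15), in U-CH1 after TNF-α (-0.10, adjusted p = 0.958) or in MUG-Chor1 after TNF-α (-0.20, adjusted p = 0.875).

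The lists that act outside the cell were called in both directions, apart from export and processing. Over all tested genes, 18.9% were called, 10.3% higher in MUG-Chor1 and 8.57% lower. The lists are short, and whether their shares differ from these was not tested. Of 17 export and processing genes, 4 were lower in MUG-Chor1: the propeptide-cleaving proteases TLL1 (-2.89), ADAMTS3 (-1.95) and ADAMTS14 (-0.82), and the enhancer of that cleavage PCOLCE2 (-1.62). Of 6 crosslinking genes, the lysyl oxidase family members LOXL2 (-2.78) and LOXL1 (-0.96) were lower and LOXL4 (1.17) was higher. Of 8 receptors, the collagen-binding integrin subunits ITGA11 (-2.63) and ITGA10 (-2.29) and their partner ITGB1 (-0.58) were lower, and the receptor kinase DDR2 (0.92) was higher. Of 7 collagen-degrading proteases, MMP1 (-1.10) was lower and MMP14 (0.86) higher, and of 14 fibril-binding proteins EPYC (-5.46) and LUM (-2.34) were lower and FMOD (2.43) higher. The calls of ADAMTS14, ITGB1, LOXL4 and MMP14 ended without at least 1 control, with adjusted p-values of up to 0.118, 0.18, 0.0976 and 0.0752. With the mean of its probe sets in place of the brightest, LOXL4 differed by 0.61 and was not called (limma, adjusted p = 0.123). The ITGB1 call also ended with each array centred on its median, with the trended robust prior and with the replicate block. Of 8 chondrogenic regulators, SOX6 was called (higher in MUG-Chor1, by 1.42), and SOX9 (-0.11) and TBXT (-0.05) were not. Without MUG-Chor1 control 3 the calls also held MMP2 (2.33), BGN (1.21) and TGFBI (-1.19), which made 2 higher proteases in place of 1, and 2 higher and 3 lower fibril-binding genes in place of 1 and 2. TGFBI was called with the replicate block too. DCN (-0.91) was called without U-CH1 control 3 and SOX5 (-0.81) without U-CH1 control 2. ADGRG1 (-0.89) and BMP1 (-0.65) were called under some alternatives.

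After TNF-α in U-CH1, where 1.27% of all genes were called, the lists held 1 to 2 calls each or none. The proteases CTSS (3.33) and MMP9 (2.75) rose, 2 of 7. EPYC (-4.70) and FMOD (-2.27) fell, 2 of 14 fibril-binding proteins. TMEM38B (1.33) rose, 1 of 18 modification genes, and TGM2 (1.501), a transglutaminase that cross-links matrix proteins, rose, 1 of 6 crosslinking genes. The FMOD, TGM2 and TMEM38B calls ended without at least 1 control (adjusted p of up to 0.0724, 0.0706 and 0.08). The TMEM38B call also ended with quantile normalization and with the 4 U-CH1 arrays alone. None of the 17 export, 8 receptor and 8 chondrogenic genes was called in limma, and the smallest p in each list belonged to SEC23A (-0.79, adjusted p = 0.344), ITGA10 (-1.39, adjusted p = 0.11) and TRPS1 (-1.10, adjusted p = 0.0825). All 8 chondrogenic differences were negative (median -0.65), with 3 at an unadjusted p under 0.05, beside 645 lower of all 16986 genes. The SOX9 difference was -0.61 (adjusted p = 0.56), and that of TBXT was -0.69 (adjusted p = 0.423). PRELP (-1.71, adjusted p = 0.0121) was called too without MUG-Chor1 control 3, which made 3 fibril-binding genes. PRELP was also called with the trended robust prior, as was the chordoma marker KRT19 (-1.03), and with the 4 U-CH1 arrays alone. The receptor gene ITGA11 (-1.78) was called with those 4 arrays and without MUG-Chor1 control 2.

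After TNF-α in MUG-Chor1, where 2.88% of all genes were called, 5 of 8 chondrogenic regulators fell beside COL2A1 and COL11A1. SOX5 fell by 2.45, SOX9 by 2.28, SOX6 by 1.92, TBXT (brachyury, the notochord transcription factor) by 1.92 and TRPS1 by 1.92 on the log2 scale. SOX9 and TBXT are counted among the chordoma markers as well. RUNX2, a regulator of bone formation, rose by 1.52, and the median of the list was -1.92. The RUNX2 call ended without MUG-Chor1 control 1 (adjusted p = 0.0505) or 2 (0.0579). The SOX6 call ended without U-CH1 control 1 (0.078), 2 (0.0654) or 3 (0.0615) or MUG-Chor1 control 1 (0.0703), which left 4 lower regulators. With the 4 MUG-Chor1 arrays alone the RUNX2 and SOX6 calls both ended, and that of SOX6 also without the filter on low values. SOX5, SOX6 and SOX9 together activate cartilage genes, COL2A1 among them, in chondrocytes.

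In the same comparison LOX, the lysyl oxidase that starts cross-linking, rose by 2.93 and TGM2 by 1.24, which made 2 of 6 crosslinking genes, with a list median of 1.32. Without MUG-Chor1 control 3 the count was 3, with LOXL4 (1.92), and without each other control it was 1. LOXL2 (1.40) was called with the trended robust prior. CTSS rose by 2.95 (1 of 7 proteases, median 1.19), and the collagen uptake receptor MRC2 fell by 1.65 (1 of 8 receptors). Of 14 fibril-binding proteins, LUM rose by 3.65 and DCN by 1.60, while PRELP fell by 3.68 and FMOD by 1.74. LUM and DCN are counted among the fibroblast markers as well. The fibril-binding TGFBI (2.05) was called too without MUG-Chor1 control 3, and EPYC (-1.81) without MUG-Chor1 control 2. CREB3L2, a transcription factor of collagen export, fell by 1.56, and PCOLCE2 rose by 1.25. TMEM38B rose by 1.64, 1 of 18 modification genes. The calls of DCN, FMOD, PCOLCE2 and TGM2 ended without at least 1 control, with adjusted p-values of up to 0.106, 0.118, 0.133 and 0.124. The DPP4 call among the fibroblast markers ended likewise (up to 0.0656). TGM2 and PCOLCE2 also lost their calls with quantile normalization, with each array centred on its median and with the 4 MUG-Chor1 arrays alone. DPP4 lost its call with quantile normalization and with those 4 arrays, and FMOD without the filter on low values.

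Across both lines the same lists, beside 2.48% of all genes, gave calls in 6 of 7. The proteases CTSS (3.14), MMP9 (1.97) and MMP1 (1.35) rose, 3 of 7, and TGM2 (1.37) and LOXL2 (1.17) rose, 2 of 6 crosslinking genes. TMEM38B (1.49) rose, as did the collagen III receptor ADGRG1 (1.20). The fibril-binding EPYC (-3.07), PRELP (-2.69) and FMOD (-2.01) fell, 3 of 14, as did the chondrogenic SOX5 (-1.69), TRPS1 (-1.51) and TBXT (-1.30), 3 of 8. Without MUG-Chor1 control 3, SOX6 (-1.13) and TGFBI (1.46) were also called, and SOX9 (-1.44) was called under 7 of the alternatives. Among these is the fit without the U-CH1 TNF-α array, which repeats the MUG-Chor1 comparison. The chondrogenic count was 1 without U-CH1 control 1 or 3 or MUG-Chor1 control 1, and 2 where MUG-Chor1 control 2 was dropped. No export gene was called in limma, where CREB3L2 came nearest (-1.02, adjusted p = 0.0603). CREB3L2 was called with the trended robust prior, and PCOLCE2 (0.99) without U-CH1 control 3. The ADGRG1, EPYC, LOXL2, SOX5 and TBXT calls ended without at least 1 control, with adjusted p-values of up to 0.0919, 0.0578, 0.0713, 0.0633 and 0.0792. The ADGRG1 call also ended without the filter, with quantile normalization and with each array centred on its median. In neither line alone were MMP1 (1.41 in U-CH1, 1.29 in MUG-Chor1), LOXL2 (0.94, 1.40) or ADGRG1 (1.28, 1.13) called. MMP9 and EPYC were called in U-CH1 only, and PRELP, SOX5, TRPS1 and TBXT in MUG-Chor1 only. In the test of the difference between the lines, LOX was called (MUG-Chor1 minus U-CH1 3.06, adjusted p = 0.0479), 1 of 6 crosslinking genes. That call ended without U-CH1 control 1 (0.122), 2 (0.128) or 3 (0.109) or MUG-Chor1 control 2 (0.0756), and also without the filter (0.0773), with the filter at 3 arrays (0.055) and with quantile normalization (0.0539). EPYC narrowly missed (3.26, adjusted p = 0.0564), and it was called without MUG-Chor1 control 2 (0.0388) or 3 (0.0168), with quantile normalization (0.0473) and with the trended robust prior (0.0444). Without MUG-Chor1 control 3, LUM (2.96), PRELP (-2.26) and LOXL4 (2.13) were called as well, and without MUG-Chor1 control 2, ITGA11 (3.06).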

How the data were processed

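RNA of the 8 samples was extracted with Trizol and labelled with a whole-transcript kit, per the labels' protocols. The values are the deposited log2 signals, made with RMA and Transcriptome Analysis Console per the submitters' processing notes, which give no version, and the log base was taken from their range (0.0648 to 12.7). RMA includes quantile normalization (sorted values differ between arrays by little, with a median deviation of 0.0240), and a shift common to all genes goes unmeasured. The number of arrays limits the precision. Of 53617 probe sets, 23871 carry 1 symbol, 1842 several, and 27904 are not listed. Of the first, 22569 matched RefSeq by Entrez ID, which updated 90 symbols, and 632 of 22395 genes have several probe sets. limma 3.58.1 in R 4.3.3 was fitted to 4 group means (4 residual degrees of freedom), and with line and treatment added for both lines (5). Figures used Python 3.11.15 and matplotlib 3.10.9. The fit was tested on simulated data. Alternatives changed the filter, the probe set rule, the normalization, the prior, the arrays fitted and the replicate block, and left out each control in turn. Control array values are given for collagens called in any comparison and for the main chains of types I, II, IV, VI, IX and XI. COL10A1 is given as a range, and TNF-α array values are given for part of these genes. For every other list, up to 4 called genes a comparison are named, or the one of smallest p, and always SERPINH1, SOX9 and TBXT. Further collagens were named after their values were seen (COL5A1, COL8A2 and COL20A1), as were RUNX2 and SOX6 beside the other called chondrogenic genes, THY1 and PDGFRB, and the list genes called only without 1 array or under another setting. The members and lists were chosen with earlier results of these data known.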

Additional observations from a re-analysis of the deposited data

How the results depend on the processing

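Between the control lines 8 collagens were called, and the count stayed within 1.5 times under all 14 alternatives (6 to 10 without single controls). TNF-α in MUG-Chor1 gave 4, and 3 to 4 without single controls. TNF-α in U-CH1 gave 2, 0 to 3 without single controls and 1 with the 4 U-CH1 arrays alone. Across both lines it was 2, 1 to 2 without single controls and 1 without the filter on low values. Leaving out a TNF-α array there repeats a single-line comparison and is no separate check. The cause of the changes in count was not tested beyond the arrays and genes left out. The difference of TNF-α effects gave 0 throughout. Over every tested collagen and list gene, 8657 comparisons of a gene's call with an alternative gave no called value of opposite sign. Of these, 8398 kept their side of the threshold, 198 lost a call and 61 gained one. Most were of genes not called, which had no call to lose, so the share kept does not measure how firm the calls are. The COL6A3 call was kept in 7 of 13 alternatives in U-CH1 and in 13 of 13 in MUG-Chor1. The replicate block was fitted to the 6 controls and gave 8 collagens, the same 8, and 3248 calls over all genes against 3209. Correlations of deviations between equal numbers were 0.04, -0.06 and 0.16, and not every array correlated best with its own number, so the numbers are not taken as pairs. Over all genes, leaving out single controls gave 2123 to 3090 calls between the control lines, 104 to 329 for TNF-α in U-CH1, 284 to 664 in MUG-Chor1, 38 to 152 for the difference and 199 to 438 across both lines. A single TNF-α array a line has no replicate of its own, and signals near the median carry little above background.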
